A study of Mus musculus with 12 samples.

Results

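Trimethylation of histone H3 at lysine 36 (H3K36me3) and at lysine 27 (H3K27me3) were compared over the bodies of protein-coding genes in C2C12, a mouse cell line of the C3H strain that grows as myoblasts and forms myotubes when serum is withdrawn. 4 of the 12 ChIP-seq libraries of the study carry these marks, 1 for each mark in each cell type. The myoblasts were nearly confluent in 10% serum, the myotubes were taken about 5 days into differentiation after unfused cells had been removed with light trypsin, and both came from passages 15 to 18 of untreated cells. With 1 library per mark and cell type no value has a replicate and no test was possible, so each comparison of myotubes with myoblasts compares a pair of libraries. All values come from 1 immortal line, without an input library. The gene bodies were those of all protein-coding genes of at least 10 kb on chromosomes 1 to 19 and X, 13494 of 22350 genes, from annotated start to annotated end.

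H3K36me3 is laid down behind elongating RNA polymerase II, chiefly by SETD2, which travels with the polymerase, and is therefore known as a mark of transcribed gene bodies that builds up toward the 3' end. H3K27me3 is written by Polycomb repressive complex 2 through its catalytic subunits EZH2 and EZH1 and marks silent chromatin, often over CpG-rich promoters of developmental genes. In vitro, nucleosomes that carry H3K36 methylation are poor substrates for Polycomb repressive complex 2. In muscle precursors, Polycomb repressive complex 2 is known to hold genes of the contractile apparatus silent before differentiation.

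The myoblast libraries gave 7026942 reads for H3K36me3 and 7011383 for H3K27me3, and the myotube libraries 4309078 and 5010146. The mean over the genome was 2.75 and 2.74 reads per kb in myoblasts and 1.69 and 1.96 in myotubes, so a body of 10 kb holds few reads at the genome mean. The fold of a body is its reads per base over that mean. A gene was called enriched at a fold of at least 1.5 with the lower bound of its exact 95% Poisson interval above 1, and depleted with the upper bound below 1. The intervals cover counting error only. The last gene inside the limit was Zbtb20 at 1.50045-fold and the first outside it Irf4 at 1.4999-fold for H3K36me3 in myoblasts, and Col28a1 at 1.50068-fold and Duox2 at 1.49962-fold for H3K27me3. In myotubes they were Ccdc163 at 1.50024-fold and Gm11157 at 1.49907-fold for H3K36me3, and Stk38 at 1.50033-fold and Car7 at 1.49999-fold for H3K27me3.

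The sequence upstream of the start site differed between genes with H3K36me3, with H3K27me3 and with neither mark. The 250 bases before the annotated start are shown for 3 genes of the myoblast states, with each CpG in capitals, from the mm9 (NCBIM37) reference 5' to 3' on the strand of the gene. Mknk2 had the highest H3K36me3 fold and lies on the minus strand, so that its upstream bases are chr10:80139039-80139288. Slc4a1, also on the minus strand (chr11:102227518-102227767), had the highest H3K27me3 fold among genes without H3K36me3 whose upstream bases overlap no annotated exon. Dmd, on the plus strand (chrX:80193959-80194208), was the longest gene with neither mark, no H3K4me3 peak and a CpG ratio below 0.4 around its start.
Mknk2: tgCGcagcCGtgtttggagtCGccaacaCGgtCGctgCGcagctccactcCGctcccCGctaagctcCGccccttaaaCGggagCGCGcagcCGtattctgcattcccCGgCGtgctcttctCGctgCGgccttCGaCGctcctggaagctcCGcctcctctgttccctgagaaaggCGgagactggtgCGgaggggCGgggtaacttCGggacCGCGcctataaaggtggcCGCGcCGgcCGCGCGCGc
Slc4a1: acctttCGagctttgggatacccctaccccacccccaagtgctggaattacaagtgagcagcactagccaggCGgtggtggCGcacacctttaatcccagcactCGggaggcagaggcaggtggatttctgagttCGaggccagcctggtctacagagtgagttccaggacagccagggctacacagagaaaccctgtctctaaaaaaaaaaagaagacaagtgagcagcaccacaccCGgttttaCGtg
Dmd: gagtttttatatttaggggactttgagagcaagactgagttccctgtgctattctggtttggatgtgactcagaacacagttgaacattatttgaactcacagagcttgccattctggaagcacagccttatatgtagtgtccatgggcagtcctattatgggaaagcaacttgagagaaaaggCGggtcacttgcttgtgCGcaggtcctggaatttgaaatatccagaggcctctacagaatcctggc
These stretches hold 33, 7 and 2 CpG. Over all genes the median was 12 CpG per 250 upstream bases. By myoblast state it was 16 for genes enriched in H3K36me3 only, 7 for H3K27me3 only, 12 for both marks and 5 for neither. The observed over expected ratio of CpG in 1 kb around the start had the same order, with medians of 0.759, 0.436, 0.624 and 0.369.

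In myoblasts the marks seldom shared a gene at the limit of 1.5-fold over the genome mean. H3K36me3 was enriched over 7331 genes (54.3% of all 13494) and H3K27me3 over 2828 (21.0%). Only 209 genes (1.55%) were enriched in both, while 7122 had H3K36me3 only, 2619 H3K27me3 only and 3544 (26.3%) neither. Of the genes with H3K36me3, 2.85% also had H3K27me3, against 21.0% of all genes. The number with both depends on the limit and the background. It was 447 at 1.2-fold, 42 at 2-fold, 89 with folds scaled for GC content and 2051 with the median of 10 kb windows as background, where 20.8% of genes with H3K36me3 had H3K27me3 against 29.9% of all. Median folds were 4.45 for H3K36me3 and 0.666 for H3K27me3 in genes with H3K36me3 only, and 0.510 and 2.41 in genes with H3K27me3 only. A deposited H3K4me3 peak, a mark of active starts, lay within 1 kb of a start site in 95.1% of genes with H3K36me3 only, 12.03% of those with H3K27me3 only, 65.1% of those with both and 27.1% of those with neither.

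In myotubes H3K36me3 was enriched over 7455 genes (55.2%) and H3K27me3 over 3429 (25.4%). Both marks were enriched over 1025 genes (7.6%), and neither over 3635 (26.9%). Of the genes with H3K36me3, 13.7% had H3K27me3 as well, against 25.4% of all genes. At this limit the share was below that of all genes in both cell types, and closer to it in myotubes. With the median of 10 kb windows as background the shares were about equal in myotubes, where 4477 of 10505 genes with H3K36me3 (42.6%) had H3K27me3 against 42.7% of all genes. Other settings kept the myotube share below that of all genes. It was 24.3% against 34.1% at 1.2-fold, 3.86% against 14.5% at 2-fold and 3.59% against 13.3% with folds scaled for GC content. Across all genes the rank correlation of the marks (Spearman) was -0.298 in myoblasts and 0.117 in myotubes, as a description over 13494 genes that share library, depth and base composition. Each mark kept most of its order between the cell types, with a rank correlation over the same genes of 0.923 for H3K36me3 and 0.779 for H3K27me3.

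**Figure D1:**
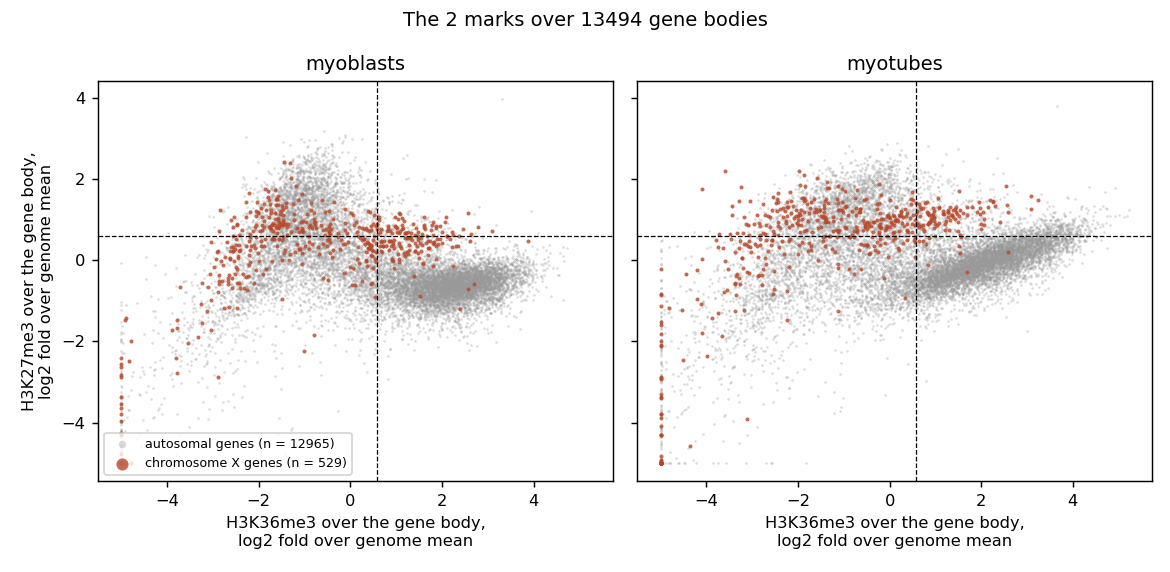
Fold of H3K36me3 (horizontal) against fold of H3K27me3 (vertical) over 13494 gene bodies in myoblasts and myotubes, on log2 axes that stop at -5, with dashed lines at 1.5-fold and genes of chromosome X in red. The upper right corner holds 209 genes in myoblasts and 1025 in myotubes, and genes of chromosome X lie left of most autosomal genes.

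The genes with the highest H3K36me3 included a kinase gene and genes of metabolism and the cytoskeleton. Mknk2, a kinase of the translation factor eIF4E, had 798 H3K36me3 reads in myoblasts, 26.5-fold (24.7 to 28.4), and 24.9-fold in myotubes. Its H3K27me3 was 1.23-fold in myoblasts and 1.86-fold in myotubes. Plec, which encodes the cytoskeletal linker plectin, had 25.4-fold H3K36me3 in myoblasts and 32.1-fold in myotubes. The highest in myotubes was Fasn, the fatty acid synthase, with 37.4-fold (35.3 to 39.6) against 22.9-fold in myoblasts, followed by Flnc, the muscle filamin, with 36.2-fold against 20.7-fold. H3K27me3 over Fasn was 0.88-fold in myoblasts and 2.38-fold in myotubes, and over Flnc 0.55-fold and 2.13-fold, so that both were called enriched in the 2 marks in myotubes.

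The genes with the highest H3K27me3 included genes of other lineages. Nr2e1, a nuclear receptor of neural progenitors, had 544 H3K27me3 reads in myoblasts, 9.15-fold (8.40 to 9.95), and 6.69-fold in myotubes, with H3K36me3 at 0.67-fold and 0.88-fold. Slc4a1, the anion exchanger of red blood cells, had 8.45-fold and 7.28-fold, and Krt75, a keratin of hair follicles, 8.15-fold and 6.23-fold. H3K36me3 over these 3 genes was below the genome mean in both cell types. Sfi1, which encodes a centrosomal protein, ranked first for H3K27me3 in both cell types at 15.6-fold and 14.0-fold, but its fold lay between 8.02 and 15.6 in all 12 libraries of the study, whatever the mark, so nothing is read from it.

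Genes on chromosome X stood apart from those on the autosomes in both marks. The median gene on X had 0.486-fold H3K36me3 in myoblasts and 0.407-fold in myotubes, while the medians of single autosomes lay between 1.25 and 3.39 and between 1.47 and 3.26. For H3K27me3 the median gene on X had 1.36-fold and 1.78-fold, against 0.552 to 0.936 and 0.782 to 1.38 on the autosomes. The median gene on X thus lay outside the range of the 19 autosomes for both marks in both cell types. The whole chromosome, genes or not, had 0.327-fold and 0.249-fold H3K36me3. Its H3K27me3 as a whole lay inside the autosomal range, at 0.864-fold in myoblasts (0.732 to 1.26) and 1.01-fold in myotubes (0.753 to 1.29). Against the mean of its own chromosome, a choice made after seeing the data, the median gene on X had 1.49-fold and 1.63-fold H3K36me3 and 1.57-fold and 1.76-fold H3K27me3, and 262 and 266 of its 529 genes were enriched in H3K36me3 in place of 143 and 103. Of the 143 genes on X with H3K36me3 in myoblasts, 61 (42.7%) also had H3K27me3, and in myotubes 93 of 103 (90.3%) did. Over all genes on X the share with H3K27me3 was 40.8% and 62.4%, so in myoblasts the genes with H3K36me3 lay near it. On the autosomes 2.06% and 12.7% of genes with H3K36me3 had H3K27me3, against 20.1% and 23.9% of all autosomal genes. Med14, a subunit of Mediator, had 2.66-fold H3K36me3 and 1.54-fold H3K27me3 in myoblasts and 1.94-fold and 2.21-fold in myotubes. Taf1, the largest subunit of the general transcription factor TFIID, had 3.18-fold and 1.51-fold in myoblasts and 1.96-fold and 2.05-fold in myotubes. Reads from active and inactive copies of X, if both are present, fall on the same bases and cannot be told apart.

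Splitting the genes into 10 equal groups by H3K36me3, from group 1 with the least to group 10 with the most, showed where H3K27me3 lay on that scale. In myoblasts median H3K27me3 was 0.514-fold in group 1, rose to 1.91-fold in group 3 and fell to between 0.636 and 0.727 in groups 6 to 10. The share of genes with H3K27me3 was 11.2% in group 1, 65.3% in group 3 and 0.444% in group 10. The genes with least H3K36me3 were therefore mostly without H3K27me3, and H3K27me3 was highest in genes with about 0.517-fold H3K36me3. Group 1 was likewise low in H3K4me1, H3K4me2 and H3K27ac, at 0.0926-fold, 0.0736-fold and 0.0776-fold, with a GC content of 39.8%. Its low H3K27me3 was thus not particular to that mark, and the part of base composition was not tested. In myotubes the first peak of H3K27me3 lay at the same place, 1.73-fold in group 3. Median H3K27me3 then rose again from 0.800-fold in group 6 to 1.37-fold in group 10, where 31.9% of genes were called enriched in it. The GC content of the bodies moved with this second rise, from 42.6% in group 6 to 50.6% in group 10. In myoblasts GC content rose likewise, from 43.4% to 49.2%. The rise in myotubes was not particular to H3K27me3. Over the same groups median H3K4me1 went from 1.44-fold to 3.28-fold, H3K4me2 from 1.87-fold to 4.49-fold and H3K27ac from 1.26-fold to 3.83-fold. In myoblasts these 3 rose as well, from 1.27-fold, 1.79-fold and 1.57-fold to 2.96-fold, 5.51-fold and 5.65-fold.

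H3K27me3 followed GC content more closely in the myotube library, with a rank correlation over 13494 genes of 0.430 against 0.255 in myoblasts, and H3K36me3 likewise with 0.485 against 0.318. Among genes with H3K36me3 the marks had a rank correlation of 0.0407 in myoblasts and 0.480 in myotubes. Folds were also divided by the level of windows outside genes at the same GC content, a choice made after seeing the data. The rank correlation in myotubes then became -0.0305, and the genes with both marks fell to 89 in myoblasts and 226 in myotubes. Of the genes with H3K36me3, 1.35% and 3.59% then had H3K27me3, against 13.4% and 13.3% of all genes. With genes grouped again by scaled H3K36me3, median H3K27me3 in group 10 of myotubes was 1.02-fold, against 0.764-fold over all genes. Without the scaling it was 1.37-fold against 1.04-fold. On chromosome X, 248 genes in myoblasts and 327 in myotubes were enriched in H3K27me3 with this scaling, against 216 and 330 without it. The part of base composition in the overlap in myotubes was not tested beyond this.

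**Figure D2:**
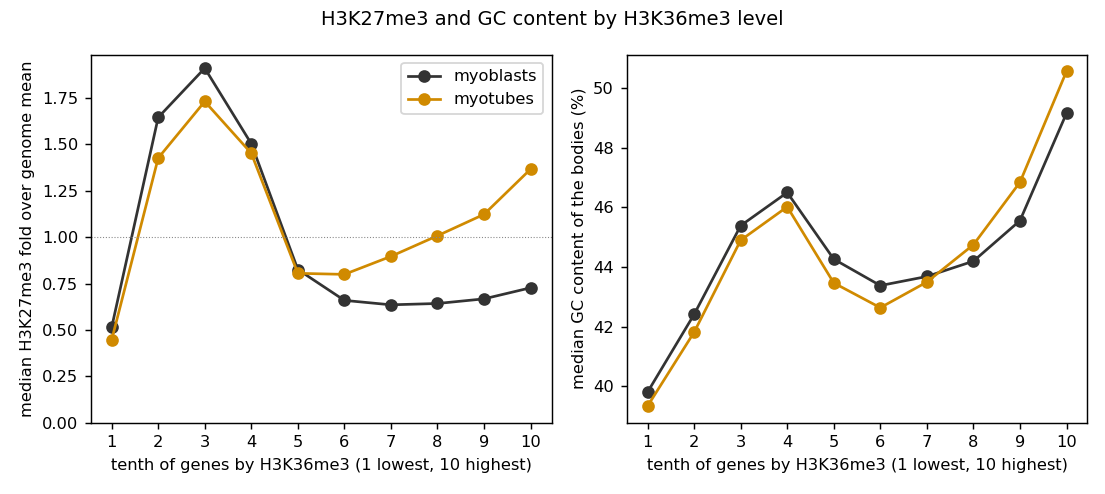
Median H3K27me3 fold and median GC content of the gene bodies in 10 equal groups of genes ordered by H3K36me3, in myoblasts and myotubes. H3K27me3 was highest in group 3 in both, at 1.91-fold and 1.73-fold, and rose again to 1.37-fold in group 10 of myotubes.

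Along the body the marks ran in opposite directions in myoblasts. In genes with H3K36me3 only, mean H3K36me3 rose from 1.97-fold in the first of 20 equal bins to 6.86-fold in bin 19, and was 1.38-fold in the 2 kb before the start and 2.69-fold in the last 2 kb of the 10 kb beyond the end. In myotubes it rose from 1.63-fold to 7.46-fold. H3K27me3 in genes with H3K27me3 only was highest in the first bin in myoblasts, at 3.31-fold, and lowest in the last, at 2.52-fold. In myotubes it was nearly level, at 2.57-fold in the first and 2.48-fold in the last bin. The H3K27me3 that remained in genes with H3K36me3 only ran from 0.769-fold to 0.686-fold in myoblasts, and from 0.601-fold to 1.13-fold in myotubes.

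Gene by gene, the direction was read in the share of reads in the 3' bins of the body, bins 11 to 20, over enriched genes with at least 50 reads. The median share for H3K36me3 was 59.9% over 7324 genes in myoblasts and 63.6% over 7230 in myotubes. The exact binomial interval lay above 50% in 4986 (68.1%) and 5189 genes (71.8%), and below it in 513 and 375. For H3K27me3 the median share was 48.4% over 2802 genes in myoblasts and 50.5% in myotubes. Its interval lay below 50% in 898 of 2802 genes (32.0%) in myoblasts and above it in 553 (19.7%). In myotubes the counts were even, with 608 of 3126 genes (19.4%) below and 611 (19.5%) above. Length changed the H3K36me3 median little, from 61.0% in genes of 10 to 20 kb to 56.1% in the 67 genes of 300 kb or longer in myoblasts. Myh9, the heavy chain of nonmuscle myosin, had H3K36me3 at 12.9-fold in bins 1 to 5 and 35.2-fold in bins 16 to 20 in myoblasts, with H3K27me3 at 1.27-fold and 1.18-fold.

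**Figure D3:**
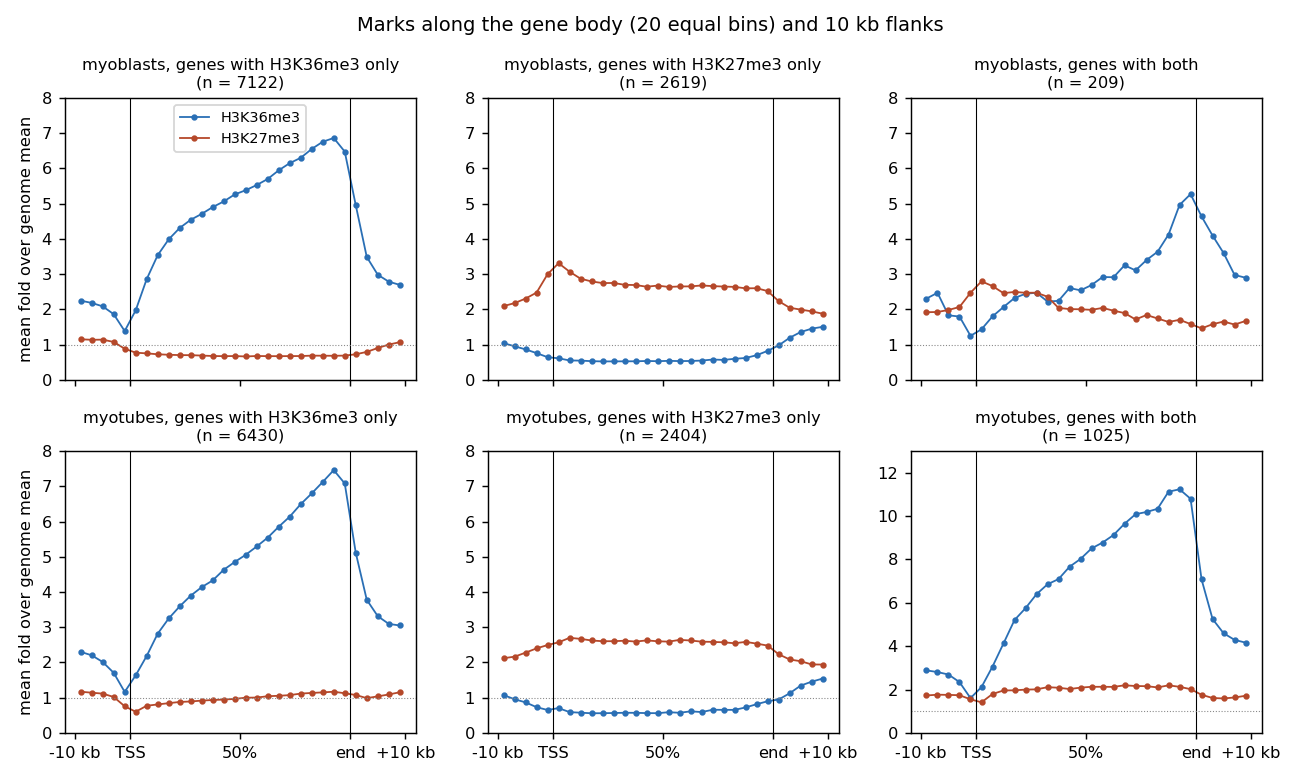
Mean fold of H3K36me3 and H3K27me3 in 20 equal bins from start to end of the gene body and in 10 kb on either side, for genes with H3K36me3 only, H3K27me3 only and both marks, in each cell type; the panel of myotube genes with both has a longer vertical axis. H3K36me3 rose toward the 3' end wherever it was enriched, to 6.86-fold in myoblast genes with H3K36me3 only, while H3K27me3 in myoblast genes with both marks fell from 2.79-fold to 1.58-fold.

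Exons held more H3K36me3 than introns. Over genes with H3K36me3 only that overlap no other gene, exons had 18.7 H3K36me3 reads per kb and introns 10.9 in myoblasts, a ratio of 1.71, and the ratio was 1.98 in myotubes. H3K27me3 in the same genes had a ratio of 1.01 in myoblasts and 1.24 in myotubes. In genes not enriched in H3K36me3 exons also held more of it than introns, with ratios of 1.86 and 2.37 in genes with neither mark and 1.49 and 1.87 in genes with H3K27me3 only. H3K27me3 in genes with H3K27me3 only had a ratio of 1.16 and 1.07. The GC content of exons and introns was not adjusted for.

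Genes with both marks in myoblasts divided by chromosome. On the autosomes mean H3K27me3 fell from 3.32-fold in the first bin to 1.48-fold in the last while H3K36me3 rose from 1.53-fold to 6.06-fold. On chromosome X H3K27me3 went from 1.52-fold to 1.82-fold. Of the 144 autosomal genes with enough reads for both shares, 71 had H3K36me3 weighted to the 3' bins and H3K27me3 to the 5' bins, and 13 the reverse. None of the 58 on chromosome X had either order. In 35.1% of the 148 autosomal bodies another gene overlapped, against 20.6% of all bodies, and reads of overlapping genes cannot be told apart.

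Dlgap4, a scaffold protein of synapses on chromosome 2 (156439441 to 156590099, plus strand), was the clearest long example and overlaps no other gene. In myoblasts H3K27me3 was 5.69-fold in bins 1 to 5, 6.53-fold in bins 6 to 10 and 0.64-fold in bins 16 to 20. H3K36me3 was 0.76-fold, 0.77-fold and 9.26-fold in the same stretches. The 3' bins held 87.3% of its H3K36me3 reads and 23.9% of its H3K27me3 reads in myoblasts, and 86.1% and 27.6% in myotubes. Kcnh3, a potassium channel of neurons, had 10.5-fold H3K27me3 in bins 1 to 5 and 0.81-fold in bins 16 to 20, with H3K36me3 at 1.22-fold and 6.16-fold. Tollip, the Toll-interacting protein, had 5.24-fold and 0.30-fold H3K27me3 in the same bins with 0.23-fold and 5.56-fold H3K36me3. In all 3 genes the marks exchanged places within the annotated body, so a call of both over the whole gene did not mean both on the same bases. In the 22 myoblast genes of at least 100 kb with both marks, 23.4% of bins had both at 1.5-fold or more, 25.9% H3K36me3 only and 37.05% H3K27me3 only.

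In myotubes the genes with both marks had another shape. H3K27me3 rose along them from 1.41-fold in the first bin to 2.02-fold in the last, beside H3K36me3 from 2.11-fold to 10.8-fold. Of 816 genes with enough reads, 150 had both marks weighted to the 3' bins and 90 the opposed order of the myoblast genes. They came from different myoblast states. 571 had H3K36me3 only in myoblasts, with H3K36me3 at a median of 10.9-fold in myotubes and H3K27me3 at 0.835-fold in myoblasts and 1.67-fold in myotubes. 255 had H3K27me3 only in myoblasts, and their H3K36me3 went from 0.924-fold to 2.10-fold while H3K27me3 was 2.36-fold and 2.24-fold. 166 had both marks in both cell types, and 33 had neither in myoblasts. In bulk chromatin, 2 marks on the same copies of a gene and 2 marks in different cells cannot be told apart.

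Of long genes without an H3K4me3 peak, more had neither mark than H3K27me3 at the limit of 1.5-fold. In myoblasts 1038 genes of at least 100 kb had no H3K4me3 peak within 1 kb of a start site. Of these 378 (36.4%, exact binomial interval 33.5 to 39.4) were enriched in H3K27me3, 631 (60.8%) in neither mark and 355 (34.2%) were depleted of both. Myotubes gave 382 of 1044 (36.6%), 635 (60.8%) and 375 (35.9%). At 1.2-fold 47.6% of the myoblast genes had H3K27me3 and 49.3% neither mark. With the median of 10 kb windows as background the order turned, to 52.5% and 39.8% in myoblasts and 49.5% and 40.04% in myotubes. The share with H3K27me3 was lowest in the longest genes. In myoblasts it was 46.0% of 1624 genes of 10 to 20 kb without a peak, of which 12.8% had H3K36me3. It was 46.5% and 48.9% in the next classes up to 100 kb, 42.6% of 734 genes of 100 to 300 kb and 21.4% of 304 genes of 300 kb or longer. Median GC content was lower in each longer class, from 46.3% in the shortest to 40.2% in the longest. With all genes split into 5 groups by GC content, median H3K27me3 of the genes without a peak was 0.724-fold in the group with least GC and 2.37-fold in that with most, in myoblasts.

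**Figure D4:**
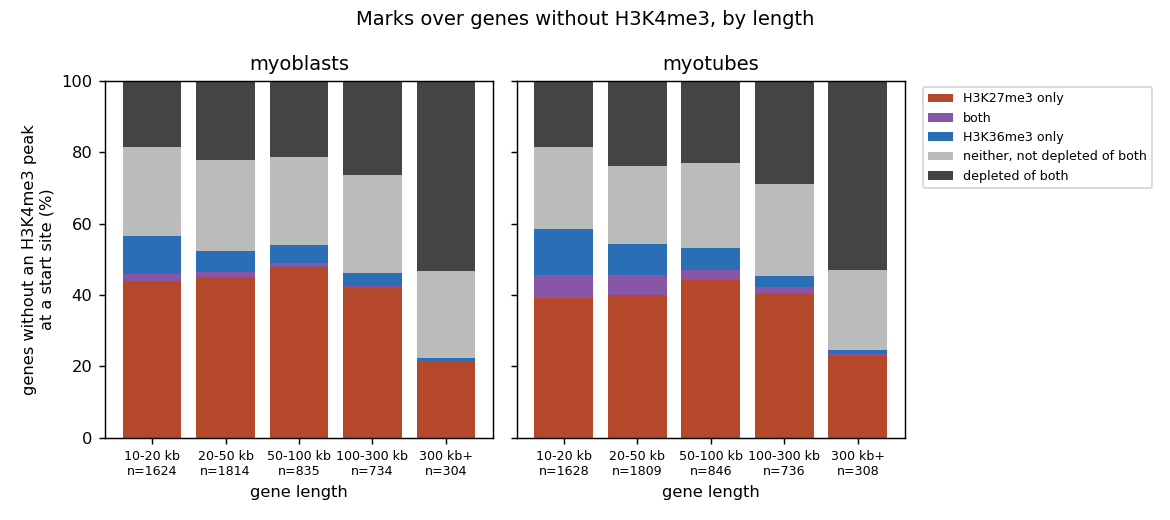
Stacked bars of the percent of genes with no H3K4me3 peak that had H3K27me3 only, both marks, H3K36me3 only, neither mark or a depletion of both, by length of the gene body in each cell type. In the longest myoblast genes H3K27me3 took 21.4%, with or without H3K36me3, against 46.0% in those of 10 to 20 kb.

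The longest genes with neither mark included neuronal genes and a muscle gene. Lrp1b, a lipoprotein receptor of 2058 kb, had 1046 H3K36me3 reads in myoblasts, 0.18-fold (0.17 to 0.20), and 2803 H3K27me3 reads, 0.50-fold (0.48 to 0.52). In myotubes it had 0.11-fold and 0.39-fold. Cntnap2, a neuronal adhesion protein of the neurexin family, had 0.21-fold and 0.62-fold in myoblasts and 0.14-fold and 0.55-fold in myotubes. Dmd, which encodes the muscle protein dystrophin over 2257 kb of chromosome X, had 0.16-fold H3K36me3 and 0.78-fold H3K27me3 in myoblasts and 0.15-fold and 0.86-fold in myotubes. H3K36me3 over Dmd was therefore far below the genome mean in differentiated muscle cells as well. The whole of chromosome X was also low in H3K36me3, at 0.327-fold in myoblasts and 0.249-fold in myotubes, and its median gene had 0.486-fold and 0.407-fold. Ptprd, a receptor tyrosine phosphatase of neurons, averaged 0.41-fold H3K36me3 in myoblasts but ran from 0.19-fold in bins 1 to 5 to 0.93-fold in bins 16 to 20.

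Other long genes had H3K27me3 only, over the whole body or toward 1 end. Pard3b, a cell polarity gene of 1003 kb, had 6356 H3K27me3 reads in myoblasts, 2.31-fold (2.25 to 2.37), and 1.96-fold in myotubes, with H3K36me3 at 0.52-fold and 0.33-fold. In steps of 5 bins its H3K27me3 was 1.82-fold, 1.79-fold, 2.37-fold and 3.26-fold. Accn1, an acid-sensing ion channel of neurons, had 2.28-fold and 2.40-fold, and between 1.95-fold and 2.88-fold in the 4 steps in myoblasts. Anks1b, a postsynaptic protein, had 1.75-fold and 1.61-fold, but its H3K27me3 was 3.58-fold in bins 16 to 20 and between 0.93-fold and 1.26-fold before. Among myoblast genes of all lengths with no H3K4me3 peak, 59.4% with a CpG ratio of 0.6 or more around the start had H3K27me3, against 37.6% with a ratio below 0.4. In those of 100 to 300 kb it was 168 of 287 (58.5%) against 75 of 297 (25.3%). In those of 300 kb or longer the shares did not have this order, with 30 of 138 (21.7%) against 23 of 82 (28.05%). Across lengths the CpG ratio and H3K27me3 ran apart, since the median ratio was 0.243 in genes of 10 to 20 kb and 0.573 in those of 300 kb or longer, where H3K27me3 was least frequent.

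The gene lists were chosen with earlier results of these data known. Over all genes H3K36me3 was enriched over 54.3% in myoblasts and 55.2% in myotubes, H3K27me3 over 21.0% and 25.4%, and neither over 26.3% and 26.9%. Of 62 genes of transcription and pre-mRNA processing, 61 had H3K36me3 in both cell types, and 2 had H3K27me3 in myoblasts and 10 in myotubes. Thoc2, of the mRNA export complex, was the exception for H3K36me3 against the genome mean. With folds scaled for GC content all 62 had H3K36me3 in both cell types. Against the mean of the own chromosome 62 had it in myoblasts and 60 in myotubes. Of 77 neuronal adhesion, receptor and channel genes, with a median length of 755 kb, 70 had neither mark in both cell types. Their median H3K36me3 was 0.278-fold and 0.203-fold and their median H3K27me3 0.787-fold and 0.710-fold. Kcnma1, a calcium-activated potassium channel, was 1 of 3 with H3K27me3 in both, at 1.84-fold and 1.79-fold. Cdh13, which encodes T-cadherin, was the 1 with H3K36me3, at 1.62-fold in myoblasts and 4.01-fold in myotubes.

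Transcription factors of early development fell into 3 groups that changed little between the cell types. Of 69 bodies, with Runx2 annotated as 2 genes, 24 had H3K27me3 only in both, 20 had H3K36me3 only in both and 17 had neither in both. Over all 13494 genes the same classes held 2164, 6054 and 2992. Of all genes with these states in myoblasts, 82.6%, 85.0% and 84.4% kept them, so the small change was not particular to the list. In myoblasts 39.1% of the list had H3K36me3 and 37.7% H3K27me3, against 54.3% and 21.0% of all genes. Pax3, the regulator of embryonic muscle progenitors, had H3K27me3 at 1.79-fold in myoblasts and 1.78-fold in myotubes. Pax6, of eye and neural development, had 2.82-fold and 2.31-fold. Pax7, the factor of muscle stem cells, was enriched in neither mark, with H3K27me3 at 1.30-fold and 1.07-fold and H3K36me3 at 1.14-fold and 1.17-fold. Of the myoblast H3K27me3 over Pax7, 29.0% (24.3 to 34.1) lay in the 3' bins, and of its H3K36me3 62.9% (57.2 to 68.4). Of 60 collagen and matrix genes, 33 had H3K36me3 and 18 H3K27me3 in myoblasts, and 32 and 26 in myotubes. The H3K36me3 counts, 55.0% and 53.3%, were near those of all genes, and the H3K27me3 counts were 30.0% and 43.3% against 21.0% and 25.4%.

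Genes that write, read and erase the marks were nearly all covered by H3K36me3. It was enriched over 41 of 43 (95.3%) in myoblasts and 42 (97.7%) in myotubes, against 54.3% and 55.2% of all genes. H3K27me3 was enriched over 0 and 2, against 21.0% and 25.4% of all genes. Of all genes with an H3K4me3 peak, 84.4% and 82.8% had H3K36me3. Setd2, the H3K36 methyltransferase, had 4.79-fold (4.51 to 5.08) in myoblasts and 3.67-fold (3.37 to 4.0) in myotubes. Ezh2 had 3.35-fold and 1.61-fold, a ratio of myotubes to myoblasts of 0.48 (0.41 to 0.57), while its paralogue Ezh1 had 6.73-fold and 7.60-fold, a ratio of 1.13 (1.0 to 1.28). H3K27me3 over both lay between 0.66-fold and 1.24-fold.

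Markers of other cell types were used to check the label of the cells. Of 14 skeletal muscle markers of at least 10 kb, 7 had H3K36me3 in myoblasts and all 14 in myotubes, while 6 and 11 had H3K27me3. Of all genes 54.3% and 55.2% had H3K36me3, so in myoblasts the muscle markers, at 50%, lay near that share. H3K36me3 was enriched over 2 and 3 of 14 neuronal markers, 2 and 2 of 12 blood markers, 1 and 2 of 15 endothelial markers and 0 and 1 of 12 hepatocyte markers, in myoblasts and myotubes. Each of these shares was below that of all genes. H3K27me3 was enriched over 7 and 5, 8 and 10, 7 and 7, and 7 and 8 of the same lists. As a share this was above the 21.0% and 25.4% of all genes in each of the 5 lists, muscle included. Alb, the serum albumin of liver, had H3K27me3 at 3.69-fold and 3.90-fold with H3K36me3 at 0.37-fold and 0.45-fold. Runx1 and Csf1r were the blood markers with H3K36me3 in both cell types.

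Between the libraries of the cell types, 653 of 7977 genes (8.19%) had H3K36me3 at least 2-fold higher in myotubes and 505 (6.33%) at least 2-fold lower. With enrichment called on folds scaled for GC content, 356 were higher and 504 lower. That scaling changed which genes were compared and left their ratios as they were. The ratios add 1 read to each count and are scaled by total reads, and the exact conditional interval had to exclude 1. For H3K27me3, 306 of 3643 genes (8.4%) were higher and 8 (0.22%) lower. Over the 653 genes with higher H3K36me3 the median ratio was 2.62 for H3K36me3 and 1.15 for H3K27me3, and 214 had a H3K27me3 ratio below 1. The median H3K27me3 ratio was 1.43 over the 6819 genes whose H3K36me3 changed less and 1.06 over the 505 with lower H3K36me3, and over all 13494 genes it was 1.16. Most genes that gained H3K36me3 thus had no fewer H3K27me3 reads than the totals give, though their ratio was below that of genes with steady H3K36me3. The number of H3K27me3 rises depends on the scaling of the ratios and on which genes are called enriched. With ratios scaled by the median over gene bodies, 172 genes had higher and 27 lower H3K27me3. With unscaled ratios but enrichment called on folds scaled for GC content the counts were 27 and 10. With enrichment set at 2-fold 50 were higher. The genes with less H3K27me3 included Wnt10a, Sp9, Shh, Tbc1d21, Skor1, Rgs14 and Pitx1. Pitx1, a homeobox factor of the hindlimb, went from 222 reads and 7.26-fold to 72 reads and 3.30-fold. The largest rise was over Traf7, a ubiquitin ligase, with 12 H3K27me3 reads (0.42-fold) in myoblasts and 49 (2.41-fold) in myotubes beside H3K36me3 at 13.3-fold and 18.2-fold. Optc, an eye matrix protein, went from 1.48-fold to 6.09-fold with H3K36me3 at 0.71-fold and 1.15-fold, so that rises were seen both with and without H3K36me3. Among the genes with less H3K27me3, Shh, the hedgehog ligand, went from 5.35-fold to 2.28-fold with H3K36me3 at 0.25-fold and 0.46-fold.

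At least 2-fold more H3K36me3 in myotubes was seen over 36 of the 71 contractile and membrane genes of muscle. 63 of them had enough reads and enrichment in at least 1 cell type to be compared, and of all genes so compared 8.19% were higher. Among the largest rises were those of Cd300a, Scn4a, Cav3 and Myh3, of which Cd300a, a receptor of immune cells, is no muscle gene and went from 0.27-fold (0.14 to 0.49) to 5.40-fold (4.52 to 6.40). Of all 71 genes of the list, 35 (49.3%) had H3K36me3 in myoblasts and 62 (87.3%) in myotubes, against 54.3% and 55.2% of all genes, and the median fold went from 1.49 to 6.23. H3K27me3 was enriched over 21 (29.6%) in myoblasts and 39 (54.9%) in myotubes, against 21.0% and 25.4%, with medians of 0.946 and 1.57. Scn4a, the sodium channel of skeletal muscle, went from 0.88-fold to 14.8-fold H3K36me3 and from 3.75-fold to 2.90-fold H3K27me3.

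Of the 20 muscle genes with H3K27me3 only in myoblasts, 18 had both marks in myotubes and 2, Myh13 and Cmya5, kept H3K27me3 only. Of all 2619 genes with H3K27me3 only in myoblasts, 255 (9.74%) had both marks in myotubes. Over the 18 the median H3K36me3 went from 0.536-fold to 5.73-fold and the median H3K27me3 was 2.17-fold and 2.18-fold. The ratio of H3K27me3 had its interval below 1 in 5 of them and above 1 in 4, around a median ratio of 0.972. They include the sarcomeric myosins Myh1, Myh2, Myh3, Myh4 and Myh7. Myh3, the embryonic heavy chain, went from 0.71-fold to 11.99-fold H3K36me3 and from 3.66-fold to 2.23-fold H3K27me3, a ratio of 0.61 (0.48 to 0.77). Myh4, a fast adult heavy chain, went from 0.31-fold to 1.76-fold H3K36me3 and from 2.45-fold to 3.88-fold H3K27me3, a ratio of 1.58 (1.27 to 1.98). Neb, the thin filament protein nebulin, had H3K36me3 at 1.04-fold and 7.34-fold and H3K27me3 at 1.58-fold and 1.90-fold. The median GC content of the 18 bodies is 49.1%, against 44.3% over all genes. With folds scaled for GC content, 11 muscle genes had H3K27me3 only in myoblasts, 6 of which had both marks in myotubes. The genes of the list with H3K27me3 in myotubes fell from 39 to 11 of 71. That lay near the share of all genes under this scaling, 13.3%.

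A further 16 of the 34 muscle genes with H3K36me3 only in myoblasts had both marks in myotubes, against 571 of all 7122 such genes (8.02%). Their median H3K36me3 was 8.96-fold and 15.1-fold and their median H3K27me3 0.887-fold and 1.80-fold. Ttn, the giant sarcomeric spring titin, had 6.63-fold H3K36me3 in myoblasts and 12.3-fold in myotubes, and 1.25-fold and 2.29-fold H3K27me3. In steps of 5 bins Ttn in myotubes had H3K36me3 between 8.96-fold and 18.8-fold and H3K27me3 between 2.02-fold and 2.73-fold, so that both marks lay in each step. Ryr1, the calcium release channel, had 3.56-fold and 15.1-fold H3K36me3 and 1.14-fold and 1.57-fold H3K27me3. 8 genes of the list went from neither mark to H3K36me3 only, among them Mef2c. Mef2c, a transcription factor of muscle differentiation, went from 0.68-fold to 2.30-fold H3K36me3 with H3K27me3 at 1.26-fold and 1.16-fold. Ncam1, an adhesion molecule of fusing myoblasts, had H3K36me3 only in both cell types, at 2.62-fold and 3.98-fold with H3K27me3 at 0.57-fold and 0.93-fold.

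**Figure D5:**
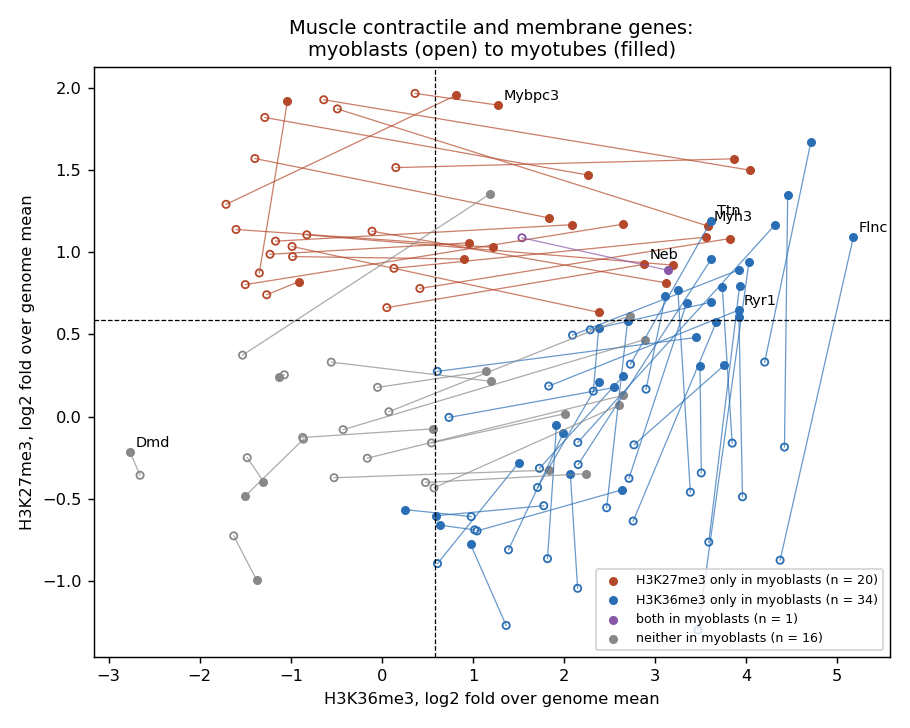
Fold of H3K36me3 (horizontal) against fold of H3K27me3 (vertical), log2 axes, for the 71 muscle genes, with open points for myoblasts, filled points for myotubes and colours for the myoblast state. Most points move right from myoblasts to myotubes, with a median of 1.49-fold against 6.23-fold, while 1 gene was at least 2-fold lower. The 20 with H3K27me3 only in myoblasts were all still enriched in it in myotubes.

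A change from H3K27me3 only to H3K36me3 only was rare, with 33 genes of 2619 (1.26%) and none on chromosome X, or 10 genes with folds scaled for GC content. Ckm, the muscle creatine kinase, had 13 H3K36me3 reads in myoblasts (0.45-fold) and 108 in myotubes (6.11-fold), and H3K27me3 at 1.77-fold and 1.02-fold, a ratio of 0.59 (0.33 to 0.98). Filip1, a filamin-interacting protein, went from 0.34-fold to 2.78-fold H3K36me3 and from 2.44-fold (2.29 to 2.59) to 1.33-fold (1.21 to 1.46) H3K27me3. Wnt10a, a Wnt ligand, went from 1.15-fold to 4.82-fold and from 4.26-fold to 1.17-fold, a H3K27me3 ratio of 0.28 (0.18 to 0.41). The opposite change was seen in 24 genes, 20 of them on chromosome X and 4 on autosomes. It was 12 with folds scaled for GC content, 12 against the mean of the own chromosome and 7 with the median of 10 kb windows as background. Kif4, a chromosome-associated kinesin on X, went from 2.46-fold to 0.37-fold H3K36me3 with H3K27me3 at 1.45-fold and 1.93-fold. Usp9x, a deubiquitinase also on X, went from 2.87-fold to 1.14-fold with H3K27me3 at 1.33-fold and 1.64-fold. In the 24 genes median H3K27me3 was already 1.34-fold in myoblasts, just under the limit, and 1.72-fold in myotubes.

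Cell cycle genes had less H3K36me3 in myotubes, while their median H3K27me3 changed little. The 5 largest falls of H3K36me3 over all genes were in Depdc1a, Top2a, Cep55, Casc5 and Cenpf, genes of cell division. Of 75 genes of cell cycle and DNA replication, 74 had H3K36me3 in myoblasts and 36 in myotubes, with medians of 4.92-fold and 1.44-fold. Over all genes 54.3% and 55.2% had it. Of the 74 that could be compared, 57 were at least 2-fold lower, against 6.33% of all genes so compared. Top2a, the topoisomerase of dividing cells, went from 836 reads and 9.73-fold (9.08 to 10.4) to 47 reads and 0.89-fold (0.66 to 1.19), with H3K27me3 at 0.51-fold and 0.38-fold. Cenpf, a kinetochore protein, went from 8.24-fold to 0.92-fold with H3K27me3 at 0.74-fold and 0.82-fold. Mki67, the proliferation antigen, went from 6.31-fold to 0.76-fold with 0.40-fold and 0.94-fold. Median H3K27me3 of the list was 0.613-fold and 0.631-fold, and H3K27me3 was enriched over 0 of the 75 in myoblasts and 2 in myotubes, Cenpi and Pola1, both on chromosome X. 37 of the 74 with H3K36me3 only in myoblasts had neither mark in myotubes, against 473 of all 7122 such genes (6.64%).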

How the data were processed

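The authors aligned 34-bp reads to mm9 (NCBI build 37) with Mosaik and deposited uniquely aligned reads, 1 line per read, here used as a count of 1 each, and MACS peaks with a score per peak, of which only those of H3K4me3 were used. MACS settings and duplicate handling are not given in the sources used here. The labels give 15 PCR cycles and library fragments of about 250 bp. Between 0.461% and 1.36% of the reads of the 4 libraries shared position and strand with another read.

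Reads were extended to 150 bp and midpoints counted over gene bodies of GENCODE M1 on the 2555806925 bases of chromosomes 1 to 19 and X other than N, and in 20 bins in the direction of transcription. Intervals are exact Poisson, binomial or conditional binomial intervals at 95%, for counting error only. A count table of 1 library per group allows no test, so no p-value was computed. Genes were named by fixed rules: the 5 highest folds, longest genes, largest changes and most uneven genes, the extremes of each list and 11 chosen genes. Kcnma1, Mki67, Myh1, Myh2, Myh7, Pax6, Taf1, Csf1r, Myh13, Cmya5, Sp9 and Rgs14 were named after their values were seen. 2 genes that the rules or lists name are not reported here. Members and lists were chosen with earlier results of these data known. Steps were tested on simulated data. Alternatives changed 1 choice at a time. Python 3.11.15, numpy 2.4.6, pandas 2.3.3 and scipy 1.17.1 were used.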

Additional observations from a re-analysis of the deposited data

Results flagged for a closer look

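The rank correlation of H3K36me3 and H3K27me3 over the 13494 gene bodies had opposite signs in the cell types, -0.2976 in myoblasts and 0.1169 in myotubes. The slope of H3K27me3 along genes enriched in both marks also had opposite signs, -0.0592 fold per bin over 209 genes in myoblasts and 0.0201 fold per bin over 1025 genes in myotubes. Neither difference was tested, since each cell type has 1 library of each mark. GC content moved with the first: scaled for GC content, a choice made after seeing the data, the myotube correlation was -0.0305. On the autosomes alone the slopes were -0.0874 in myoblasts and 0.0193 in myotubes, and on chromosome X 0.0093 and 0.0286, so the difference in sign was seen on the autosomes and not on X.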

How the results depend on the processing

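No paired analysis was possible because each group holds 1 library. Of 360 values of 24 results under 21 alternatives, 280 were labelled the same, 79 moved and 1 reversed. A count of genes was labelled the same within 1.5 times its main value, whatever its counting error. Myoblast genes with neither mark thus count as the same at 3544 and, with folds scaled for GC content, 5169. Only correlations, shares and percents were set against a spread, which with 1 library per group holds no variation between libraries. Counts of H3K36me3-enriched genes and of genes with lower H3K36me3 in myotubes stayed within 1.5 times under each alternative run for them.

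With the median of 10 kb windows as background, H3K27me3 was enriched over 5766 myotube genes, both marks over 2051 myoblast and 4477 myotube genes and neither over 1623 and 1700. H3K27me3 then took 52.5% and 49.52% of long genes without an H3K4me3 peak and neither mark 39.79% and 40.04%, the 3' bins held 58.74% and 62.07% of H3K36me3 and 51.72% of myotube H3K27me3, and 704 genes had higher H3K27me3, 16 lower and 7 went from H3K36me3 only to H3K27me3 only. With only 1 kb windows that hold a read, the rank correlation was -0.3601 in myoblasts and 0.07365 in myotubes, 676 myotube genes had both marks and 186 higher H3K27me3. Without overlapping genes the myotube correlation was 0.09711.

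At 1.2-fold, both marks were enriched over 447 myoblast and 1909 myotube genes, 527 genes had higher H3K27me3, long genes gave 47.59% and 47.41% with H3K27me3 and 49.33% and 49.62% with neither, and the 3' share of myotube H3K27me3 was 51.24%. At 2-fold, H3K27me3 was enriched over 1852 and 1958 genes, both marks over 42 and 254, 50 genes had higher H3K27me3, long genes gave 22.45% and 21.84% with H3K27me3 and 75.43% and 75.67% with neither, and that share was 49.56%. Long genes of 200 kb or more gave 27.93% and 29.03% with H3K27me3 and 70.43% and 69.56% with neither.

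In genes of 20 kb or longer, 123 and 618 genes had both marks, the 3' share of H3K36me3 was 59.44% and 63.17%, 432 genes had higher H3K36me3, 162 higher and 0 lower H3K27me3, and 18 went from H3K27me3 only to H3K36me3 only; fewer genes enter there. Without the first and last 2 kb the 3' shares were 57.31% and 61.01% for H3K36me3 and 48.98% for myoblast H3K27me3, and the myotube correlation was 0.135. Without the outer bins the shares were 58.37%, 61.9% and 48.89%. With at least 200 reads they were 59.55% for myoblast H3K36me3 and 49.81% for myotube H3K27me3. Ratios scaled by the median over gene bodies gave 172 genes with higher and 27 with lower H3K27me3.

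The next 3 alternatives were chosen after seeing the data. Scaled for GC content, H3K27me3 was enriched over 1812 and 1788 genes, both marks over 89 and 226 and neither over 5636 in myotubes, and the correlations were -0.3334 and, reversed, -0.03052. Long genes then gave 30.54% and 28.83% with H3K27me3 and 66.76% and 69.16% with neither, and 10 and 12 genes exchanged H3K27me3 for H3K36me3 and the reverse. Among the genes then called enriched, 356 had higher and 504 lower H3K36me3, and 27 higher and 10 lower H3K27me3. Their ratios between the cell types were not scaled for GC content. With the mean of the own chromosome as background the myotube correlation was 0.1377 and 12 genes went from H3K36me3 only to H3K27me3 only, and with autosomes only these were 0.1363 and 4. The cause of each change was not tested, also where the scaling was built from GC content. Depth limits genes near 10 kb most.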
